A study of Drosophila melanogaster with 800 samples.

Results

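Lines of the Drosophila Genetic Reference Panel (DGRP) that carried little RNA of Lst (FBgn0034140, arm 2R) were compared with the rest of the panel. Lst encodes limostatin, a peptide hormone. A line was placed in the low class when the mean of its 2 male libraries was below 3 log2 FPKM for Lst. This rule selected 13 of 200 lines, with 52 of 800 libraries, and the other 187 lines, with 748 libraries, formed the comparison. FPKM is fragments scaled by transcript length and library size.

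The 13 low lines were DGRP lines 280, 348, 350, 354, 355, 358, 361, 385, 392, 399, 437, 820 and 837. All lines of both classes were inbred from wild females by 20 generations of full-sib mating and carried no engineered allele or treatment named in the labels. Each library came from a pool of 25 mated females or 30 males, as whole flies aged 3 to 5 days and reared at 25 °C. There were 2 such pools for each sex of a line, and line means were the unit of every comparison. The low class is defined by an RNA level and holds natural genotypes that differ in many genes, so it is not a mutant and its control. In whole flies, fewer cells of a type and less RNA per cell cannot be told apart.

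Limostatin was described in Drosophila as a hormone of the corpora cardiaca, the endocrine cells that also make adipokinetic hormone. It is produced when nutrients are scarce and reduces insulin release from the insulin-producing cells of the brain, through the receptor encoded by PK1-R. The brain insulin-like peptides promote growth and energy storage, and adipokinetic hormone mobilises stored lipid and sugar.

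Depth was alike in the classes. Read from the smallest steps of the values, it had a median of 11.1 M reads (megareads) in low female libraries and 11.6 M in the other female libraries. In males the medians were 10.98 and 11.5 M, and all 800 libraries lay between 7.27 and 30.6 M. Summed levels of tissue markers in the low lines lay within the range of the other lines for 17 of 20 combinations of tissue and sex. In the other 3 combinations the highest low line exceeded the highest other line. Summed FPKM reached 25.0 against 24.0 for male brain insulin cell markers, 166 against 91.99 for ovary markers in males, and 1246 against 1150 for female eye markers. Their part in the results was not tested.

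Lst split the panel with a wide gap. The male line means of the low lines were -1.63 in line 354, -1.40 in 355, -1.04 in 820, -0.89 in 361, -0.79 in 385, -0.24 in 280 and -0.05 in 350. Those of the remaining low lines were 0.03 in 358, 0.27 in 348, 0.32 in 392, 0.70 in 399, 1.30 in 837 and 1.76 in 437. The nearest line of the other class was 409 at 4.54, followed by 441 at 4.83, and the other lines had a median of 5.88 and reached 7.0. No line lay between 1.76 and 4.54, and thresholds of 2 or 4 log2 FPKM selected the same 13 lines. These male values chose the classes and are given without a test.

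Female libraries, which the rule did not use, showed the same separation. The low lines had female means from -0.93 to 2.69 with a median of 0.04, and the other lines from 4.27 to 6.24 with a median of 5.30. All 13 low lines lay below all 187 other lines. No other gene of 10931 tested in females had this property, so the share was 0.00915%. The difference was -5.11 log2 FPKM, with 0.20 ± 0.89 (SD, n = 13 lines) against 5.31 ± 0.38 (SD, n = 187 lines). A two-sided permutation test gave p = 2e-05, the smallest that 100000 resamples can give. Leaving out each low line or family of relatives, or either replicate, kept the difference between -5.32 and -5.02.

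Lst was reduced but still detected in the low lines. None of the 800 libraries was at the floor of the scale for Lst. The low libraries held 5.99 to 76.8 reads in males, with a median of 21.0, and 6.99 to 165 in females, with a median of 24.5. The other lines had medians of 1426 reads in males and 926 in females, so low values rest on far fewer reads. The 2 replicates of a low line differed by a median of 0.17 log2 units in males and 0.38 in females, against 0.19 and 0.18 in the other lines.

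The balance between the sexes also differed between the classes, as a description, because the class was set on male values. Females had the higher Lst mean in 8 of 13 low lines but in 5 of 187 other lines. The female-minus-male difference was 0.33 ± 0.66 (SD) in low lines and -0.56 ± 0.28 (SD) in the others. Male and female levels were correlated within each class, given as a description because the rule used the male values. Pearson's r was 0.77 and Spearman's rho 0.75 among the 13 low lines, which come from 8 families or single lines, and 0.77 and 0.74 among the 187 other lines. Without the 2 lines farthest from the median of their class, r was 0.77 and 0.76.

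**Figure D1:**
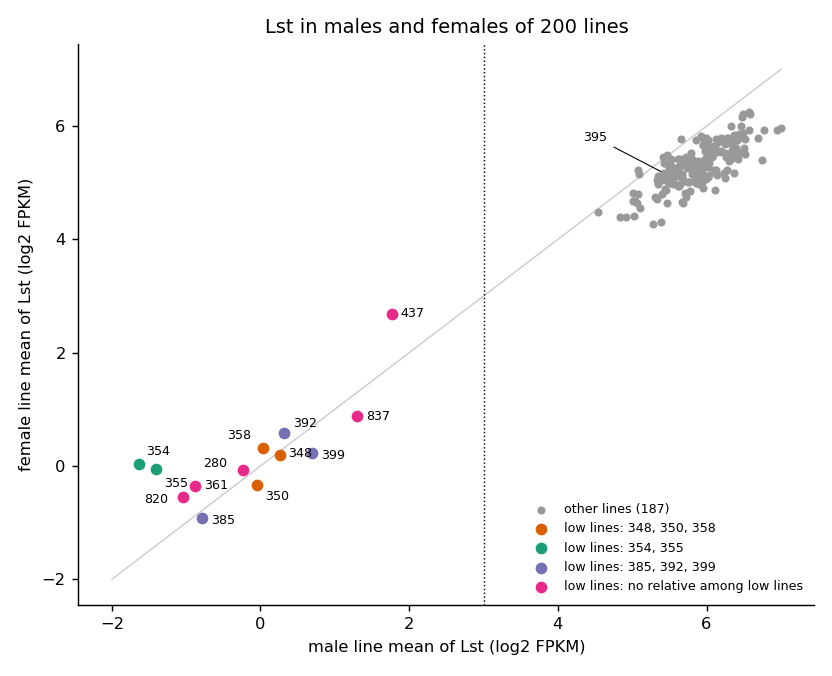
Male (x axis) and female (y axis) line means of Lst in log2 FPKM, 1 point per line, with grey points for the 187 other lines and colours for families among the 13 low lines. The dotted line marks the threshold of 3, the diagonal marks equal levels, and the low lines end at 1.76 in males while the others begin at 4.54.

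Several low lines were close relatives. Variant density, a deposited measure of each line's DNA that the rule did not use, was correlated between lines over 16410 genes after centring each gene. Of 78 pairs of low lines, 7 (8.97%) had a Pearson r of at least 0.25, against 15 of 17391 pairs of other lines (0.0863%). Lines 348, 350 and 358 formed a family with r from 0.56 to 0.74. Lines 354 and 355 formed a pair with r = 0.70. Lines 385, 392 and 399 were joined by line 395 of the other class, with r = 0.77 between 385 and 395 and 0.66 between 395 and 399. With relatives of a class counted once, the 13 low lines came from 8 families or single lines and the other 187 from 173. Pairs share lines, so these shares are a description.

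Line 395 separated from its relatives in Lst. Its male mean was 5.43 and its female mean 5.17, beside male means of -0.79, 0.32 and 0.70 in lines 385, 392 and 399. Line 395 was therefore a normal-Lst line within a low-Lst family.

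Around Lst itself, some low lines of different families resembled each other. Over the 21 genes from 10 before to 10 after Lst in the annotated order (assembly BDGP6.54), the median r of variant density was 0.31 for the 71 pairs of low lines from different families. It was 0.04 for 2428 pairs of a low and another line and 0.01 for 17373 pairs of other lines. An r of at least 0.5 was found in 42.3% of these low pairs and in 5.66% of the other pairs. With 25 genes on each side the shares were 12.7% and 5.03%, and with 50 genes they were 0% and 0.771%. Among these windows the likeness was greatest in the narrowest. The 3 windows were chosen after seeing the data, and no test was made. Relatives enter these pairs more than once, so the shares are a description. With 10 genes on each side, the low pairs with an r of at least 0.5 all came from 9 of the 13 low lines.

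Within the 21 genes the low lines were described as 3 local groups, drawn after seeing the values. Lines 280, 348, 350, 354, 355, 358, 361, 820 and 837 were alike, with r from 0.43 to 1.00 among their 36 pairs. Lines 385, 392 and 399 formed the second group, with r from 0.84 to 0.97 among themselves and from 0.01 to 0.49 with the first, so the ranges between and within groups overlapped. Line 437 had an r of -0.15 to 0.01 with the first group, and it had the highest Lst of the low lines. Line 395 had an r of -0.05 to -0.03 with its relatives 385, 392 and 399 in this window, although it was among their closest relatives over all genes.

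Single values at Cdk4 and RpLP2, after Lst, separated the first local group from the second, but line 437 was like the first at RpLP2. At Dolk the second group, at 3.60 to 3.72, lay within the first, at 3.54 to 3.83. Cdk4, asRNA:CR44375 and RpLP2 belong to the 21 genes from which the groups were drawn, so their values are not separate evidence. For Cdk4, the cyclin-dependent kinase gene next to Lst, variant density on the deposited log2 scale was -0.29 to 0.71 in the 9 alike lines. It was 2.51 to 2.61 in lines 385, 392 and 399, 2.41 in line 437 and 3.61 in line 395. The median of the other lines was 2.88. For RpLP2, a ribosomal protein gene 3 places after Lst, the density was 3.73 to 3.90 in the 9 lines, 4.98 in each of 385, 392 and 399, 3.90 in 437 and 2.31 in 395. Of the 187 other lines, 1 lay within the range of the 9 lines at Cdk4, asRNA:CR44375 and RpLP2 together. This was line 57, whose male Lst was 5.43, so the density profile of these 3 genes was also present in a line with Lst in the range of the other class. Over all 21 genes the likeness was less particular. For 8 other lines the median r with the low lines was at or above 0.51, the median of the low lines themselves, and line 627 of the other class had 0.72, above every low line.

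**Figure D2:**
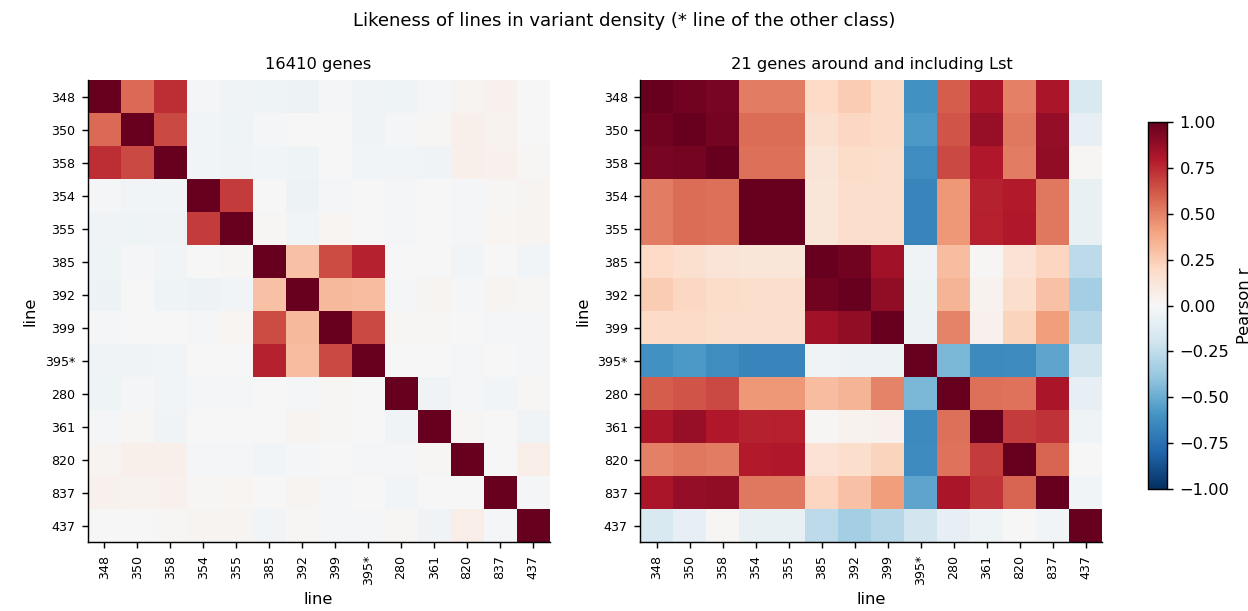
Pearson r of variant density between lines (colour scale from -1 to 1) for the 13 low lines and line 395 of the other class, over 16410 genes (left) and over the 21 genes around and including Lst (right). The left panel shows 3 blocks of relatives, and the right panel shows 9 low lines from several families alike and line 395 unlike its relatives.

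Variant density of the Lst gene itself did not pass the test. It was 3.04 ± 0.39 (SD, n = 13) in low lines and 2.92 ± 1.02 (SD, n = 187) in the others, a difference of 0.12 with a 95% interval from -0.45 to 0.69 (limma, adjusted p = 0.90). Over the genome 216 of 31152 features (0.693%) differed in density, 44 higher (0.141%) and 172 lower (0.552%) in the low lines. On normal scores of ranks the direction was the opposite, with 105 called (0.337%), 88 higher (0.282%) and 17 lower (0.0546%). With relatives averaged this count was 12 of 31152 (0.0385%). The called features lay on every arm tested except the fourth chromosome, and 32 of 3194 on 2R (1.00%) were called. Within 25 genes of Lst 2 of 50 were called, and neither is among the nearest 5 on each side. Of the metabolic genes listed below, Ilp2, Gbp2, Glys and Amyrel had a lower mean density in low lines. The low lines spread widely for Ilp2, at 0.95 ± 3.34 (SD) against 2.37 ± 0.57, and for Glys, at -0.45 ± 4.35 against 1.31 ± 1.31. Gbp2 was at -0.26 ± 1.48 (SD) against 2.42 ± 2.46. Amyrel, an amylase-related gene 11 places after Lst, had a density of -4.04 ± 5.72 (SD) against 1.00 ± 3.33 (SD) and was at the floor in 6 of 13 low and 14 of 187 other lines. None of these 4 was called with relatives averaged, with adjusted p-values from 0.23 to 0.85.

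Among the genes next to Lst on 2R, 1 had a called difference in RNA level. Of 37 genes tested in males within 25 genes of Lst, 1 was called, and of 20 tested in females 0 were called, where 0.579% and 0.512% of all tested genes were called. The called gene was CG4927, immediately before Lst. Its male level was -0.21 ± 1.27 (SD, n = 13) in low lines and 0.82 ± 0.94 (SD, n = 187) in the others, a difference of -1.03 ± 0.28 (SE; limma, adjusted p = 0.042). In females the difference was -0.96 ± 0.32 (SE; adjusted p = 0.20).

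CG4927 was not low in every low line. Its male level was -3.30 in line 361, -1.19 in 355, -1.16 in 354, -1.06 in 820, -0.64 in 348 and -0.20 in 280. It was 0.15 in 358, 0.28 in 837, 0.51 in 399, 0.74 in 392, 0.77 in 350, 0.81 in 385 and 1.57 in 437. Lines 385, 392, 399 and 437, which were outside the first local group, were at 0.51 or above, beside a median of 0.69 in the other lines. Line 350 of the first group was also above 0.51, at 0.77, and the local groups were not compared by a test. The call was lost with relatives averaged (adjusted p = 0.25) and in 18 of 31 alternatives in all. Class differences of the other neighbours were between -0.03 and 0.36 for RpS15, CG4945, the dopamine transporter gene DAT, Syn2, Cdk4, RpLP2, the dolichol kinase gene Dolk and CG8306, in both sexes. The RNA gene asRNA:CR44375, 2 places after Lst, was below the minimum level in both sexes. Its mean was -3.09 in low and -3.07 in other males.

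**Figure D3:**
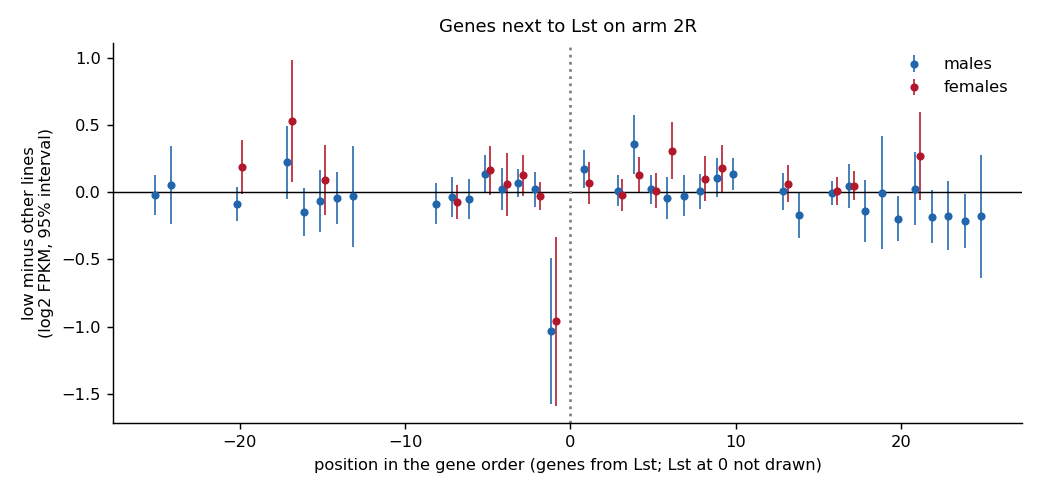
Difference in RNA level between low and other lines (log2 FPKM, y axis, with 95% intervals) for genes up to 25 places from Lst (x axis, in gene order), in males and females. CG4927, 1 place before Lst, is at -1.03 in males and -0.96 in females, and Cdk4, 1 place after it, is at 0.17 and 0.07.

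Genes of insulin signalling, peptide hormones, lipid and sugar metabolism were examined first among all other genes. None of the 173 tested in males and none of the 159 tested in females, Lst aside, was called (limma, adjusted p below 0.05). At an unadjusted p below 0.05 there were 15 in males (8.67%) and 12 in females (7.55%), against 9.25% and 9.49% of all tested genes. The median difference of the lists was 0.00 in males and 0.02 in females, beside -0.02 in each sex over all tested genes. The 95% interval of the difference stayed within 1 log2 unit of 0 for 172 of 173 genes in males and 156 of 159 in females. The exceptions were the maltase genes Mal-B1 in both sexes and Mal-A7 in females, and the dehydrogenase gene Sodh2 in females. With relatives averaged the counts were also 0.

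The limostatin receptor gene and the adipokinetic hormone genes did not pass the test. PK1-R, the receptor gene, was at 1.17 ± 0.60 (SD, n = 13) in low males and 1.03 ± 0.47 (SD, n = 187) in other males, a difference of 0.15 with an interval from -0.12 to 0.42. In females it was below the minimum level for testing, at -0.50 and -0.60. Akh, the adipokinetic hormone gene that is expressed in the same endocrine cells as Lst, was at 2.78 ± 0.43 (SD) in low and 2.62 ± 0.44 (SD) in other males. Its differences were 0.16 ± 0.13 (SE) in males and 0.07 ± 0.14 (SE) in females. The 13 low lines, at 2.01 to 3.49 in males, lay within the range of the others, 0.77 to 4.13. The receptor gene AkhR had differences of 0.02 and 0.06.

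The insulin-like peptide genes did not pass the test either. Ilp2, made in the brain insulin cells, ranged in low males from 2.78 in line 820 to 4.14 in line 354, and the other lines from 2.35 to 4.13 with a median of 3.35. The classes overlapped except for line 354. The difference was 0.11 ± 0.09 (SE; adjusted p = 0.79) in males and 0.12 ± 0.11 (SE; adjusted p = 0.70) in females. Ilp3 differed by 0.14 in males and -0.14 in females, and Ilp5 by 0.33 ± 0.26 (SE) and 0.23 ± 0.27 (SE). Ilp6, the peptide of the fat body, differed by -0.16 and 0.10. The insulin receptor gene InR, the kinase gene S6k, the lipid genes FASN1, FASN3, Fatp1, hll and Lipe and the pyruvate kinase gene PyK are not analysed here.

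Targets and effectors also showed no called difference. Thor, which encodes the translation repressor 4E-BP and is induced when insulin signalling is low, differed by -0.22 ± 0.13 (SE; adjusted p = 0.64) in males and -0.18 ± 0.13 (SE; adjusted p = 0.65) in females. The triglyceride lipase gene bmm differed by -0.07 in each sex, with intervals from -0.22 to 0.08 and from -0.19 to 0.05. Among all listed genes the smallest adjusted p in males was 0.093, for CCHa1-R, a receptor for the gut peptide CCHamide-1. It was at 0.58 ± 0.48 (SD) in low and 0.87 ± 0.28 (SD) in other males. In females the smallest was 0.25, for bgm, an acyl-CoA synthetase gene with a difference of -0.19 ± 0.07 (SE). The transcription factor gene sug (sugarbabe), which responds to dietary sugar, differed by 0.35 and 0.29 with adjusted p-values of 0.23 and 0.49.

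By list, 28 insulin signalling genes were tested in males with a median difference of -0.00 and 29 in females with -0.05. The 39 and 29 peptide hormone and receptor genes had medians of 0.01 and 0.07. The 47 lipid genes tested in each sex had medians of 0.00 and -0.00. The 59 and 54 sugar genes had medians of 0.01 and 0.06. In females the sugar list had 44 positive and 10 negative differences and the insulin signalling list 5 and 24, where 41.6% of all tested genes were positive. None of these genes was called, and the balance of signs was not tested.

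**Figure D4:**
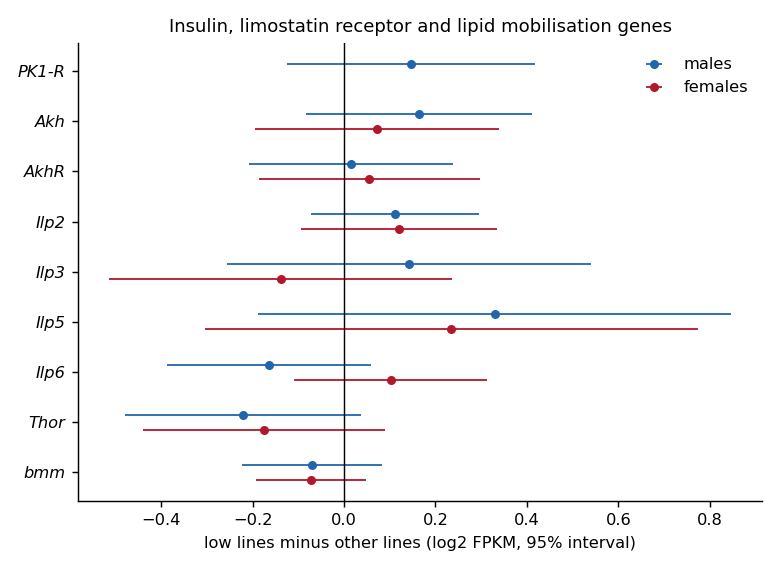
Difference between low and other lines in log2 FPKM (x axis, points with 95% intervals) for the limostatin receptor, adipokinetic hormone and insulin pathway genes in males and females. All intervals include 0, and PK1-R has no female value because it was below the minimum level.

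Over all genes, few were called. In males 87 of 15016 genes (0.579%) differed, 9 higher (0.0599%) and 78 lower (0.519%) in the low lines, Lst not counted. In females 56 of 10931 (0.512%) differed, 14 higher (0.128%) and 42 lower (0.384%), Lst among the latter. The size of the excess of lower calls depended on the scaling. With each library centred on its median, 33 of 89 male calls and 25 of 67 female calls were higher, and with a pseudocount of 1 FPKM 10 of 56 and 20 of 51 were. On normal scores of ranks 5 genes were called in males (0.0333%) and 5 in females (0.0457%), 1 and 2 of them higher. Of the male calls 20 and of the female calls 13 were XLOC features, which have no gene name. Called in both sexes were 27 features, all in the same direction. They are 31.0% of the male calls and 49.1% of the female calls without Lst, and include XLOC_011969 to XLOC_011976. The same lines supply both sexes, so this overlap is a description.

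The calls rested on few lines. For a called gene, a median of 3 of 13 low lines in each sex lay outside the central 95% of the other lines in the direction of the call. No called gene other than Lst had more than 6 such lines. Lines 348, 350 and 358 were all outside for 29 of 87 male calls and 23 of 55 female calls. These calls include the consecutively numbered XLOC_011969 to XLOC_011976 in both sexes, and whether they are separate genes was not tested. How often the same lines are all outside over all tested genes was not counted. Lines 385, 392 and 399 were all outside for 10 male and 3 female calls. Their relative 395, of the other class, was outside too for 6 and 3 of these. Lines 354 and 355 were both outside for 8 male and 6 female calls. With relatives averaged, 13 male genes (0.0866%) and 10 female genes (0.0915%) were called, of which 9 and 8 were among the first calls. Without line 348, 350, 358 or 385 the male count was 46, 56, 48 or 56, and without line 348, 350 or 358 the female count was 31, 37 or 35.

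The family of 348, 350 and 358 carried several of the largest differences. CG4766 (X) was at -5.92, -2.60 and -3.26 log2 FPKM in males of these lines, at 1.03 to 2.02 in the 10 other low lines and at 1.18 to 2.21 in the other class. The difference was -1.39 ± 0.19 (SE; adjusted p = 4e-08), and 0.0064 with relatives averaged. Without the family the male call was lost and the female difference turned from -1.25 to 0.061. Skadu (2L) was at -5.82, -5.81 and -2.35 in males of the family and at the floor in line 837, and the other low lines lay between 4.26 and 5.69. Its median in the other class was 5.21, with line means down to -6.02. CG7384 (2L) was at 2.32, 2.35 and 2.49 in females of the family, against 4.71 to 5.18 in the remaining low lines and a lowest value of 4.67 in the other class. All 13 low lines were below the median of the others, 5.22, and the difference was -0.84 ± 0.11 (SE; adjusted p = 1.7e-09), with 0.0016 when relatives were averaged. Without the family this call was lost (adjusted p = 0.18).

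SamDC (2L), the decarboxylase gene of polyamine synthesis, was likewise lowest in this family. Females had 4.12, 4.48 and 4.41 in lines 348, 350 and 358, where the other class began at 4.79. Lines 820, 837 and 280 were also low at 4.78, 4.84 and 4.94. The difference was -0.33 ± 0.06 (SE; adjusted p = 7.5e-05; 0.035 with relatives averaged), and the call was lost without the family. Among upward calls, CG3792 (2L) was at 5.46, 5.41 and 5.57 in males of the family and at no more than 4.86 in the other low lines. CG32369 (3L) was at 4.21, 3.72 and 4.20 in females of the family, where the 95th percentile of the other class was 2.98.

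Lines 385, 392 and 399 had the lowest male levels of PGRP-SB1 among all low lines, and line 395 shared this. PGRP-SB1 (3L), a secreted peptidoglycan-degrading protein that is induced by bacteria, was at -6.37, at the floor of -9.97 and at -6.37 in males of these 3 lines. The other low lines had 4.04 to 7.01. Line 395 was at -5.92, the lowest of the other class, whose next line was at 2.22. PGRP-SB1 was therefore low in all 4 relatives, of which 395 had a Lst level within the range of the other class. The class difference of -3.0 ± 0.53 (SE; adjusted p = 0.00013) in males was not called with relatives averaged (adjusted p = 0.53), and in females it turned from -2.79 to 0.28 without the 3 lines.

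Hml (3L), the haemocyte gene of the clotting protein hemolectin, was lower in lines of several families. In males it was 1.16, 1.73 and 1.17 in 385, 392 and 399, 2.15 in 837, 2.61 in 437 and 2.70 in 348. Lines 350, 358, 354 and 355 were at 3.60, 3.69, 3.84 and 3.75, and lines 280, 361 and 820 were near the median of the other class, 4.33. Line 395 was again like its relatives, at 1.24. The difference was -1.21 ± 0.18 (SE; adjusted p = 3.2e-07) in males and -1.16 ± 0.18 (SE; adjusted p = 3.7e-06) in females. With relatives averaged the male call held (adjusted p = 0.032) and the female call did not (adjusted p = 0.11).

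Some differences were small, with most low lines on the same side of the median of the other class. How many of all tested genes behave in this way was not counted. Obp57b (2R), an odorant-binding protein gene, was below the other class's median of 5.35 in males of all 13 low lines, at 4.52 to 5.25, and below it in females of 12. The differences were -0.56 ± 0.12 (SE; adjusted p = 0.0038) and -0.48 ± 0.11 (SE; adjusted p = 0.016), and neither was called with relatives averaged (adjusted p = 0.19 and 0.30). In males, line 392 was the only low line outside the central 95% of the other class, and line 395 of that class was outside too. The splicing factor gene holn1 (2L) was below the median in males of all 13 lines, by -0.27 ± 0.05 (SE; adjusted p = 0.0012; 0.0499 with relatives averaged). Its call was lost without lines 348, 350 and 358, without replicate 1 and with 5 principal components of variant density. Only lines 350, 358 and 361 lay outside the central 95% of the other lines. CG31524 (3R) was also below it in males of all 13, with a difference of -0.40 ± 0.10 (SE; adjusted p = 0.014; 0.25 with relatives averaged).

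PGRP-SC1a (2R), an amidase gene that damps the immune response of the gut, was not called in the main test. Its class difference had the opposite sign to that of PGRP-SB1. Its male level was 5.14 ± 1.28 (SD, n = 13) in low and 2.69 ± 2.48 (SD, n = 187) in other lines, and 11 of 13 low lines were above the others' median of 2.87. The difference of 2.46 ± 0.69 (SE) was not called on the log2 scale (adjusted p = 0.073) and was called on ranks and with a pseudocount of 1 FPKM (adjusted p = 0.012). Eglp2 (2R), a glycerol channel gene, was higher in females by 0.51 ± 0.11 (SE; adjusted p = 0.0049) and above the others' median in 12 of 13 low lines. With relatives averaged its adjusted p was 0.11.

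Of the remaining leading genes that were lower, most had wide spreads in both classes. Jon44E (2R), a digestive serine protease gene, was at -9.97 to 5.46 in low males and -9.97 to 5.28 in other males, with a difference of -3.46 ± 0.86 (SE; adjusted p = 0.021). The transporter gene Mdr50 (2R) differed by -2.03 in males and -1.97 in females, and CG33109 (3R) by -2.74 and -2.36. CG42814 (3R) differed by -1.96 in males, with -5.76 in line 385, -9.97 in 399 and -6.03 in line 395 of the other class. CG11825 (2R) differed by -2.68 in females (adjusted p = 2.1e-05; 0.025 with relatives averaged), with its lowest values in 280, 392 and 385. The spliceosomal RNA gene snRNA:U5:14B (X) differed by -1.21 in females. Jon44E, Mdr50, CG33109, CG42814 and snRNA:U5:14B were not called with relatives averaged, with adjusted p-values from 0.17 to 0.91.

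Leading genes that were higher had smaller differences. The cytochrome P450 gene Cyp4d14 (X) was higher by 1.06 ± 0.27 (SE; adjusted p = 0.026) in males, at 6.17, 5.6 and 6.18 in 348, 350 and 358 and 6.63 in 837. CG11267 (3L), called in males, and CG9747 (3R), CG1806 (X), l(3)neo38 (3R) and CG3662 (2L), called in females, were higher by 0.26 to 0.36 log2 units. None of these was called with relatives averaged, with adjusted p-values from 0.15 to 0.89.

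**Figure D5:**
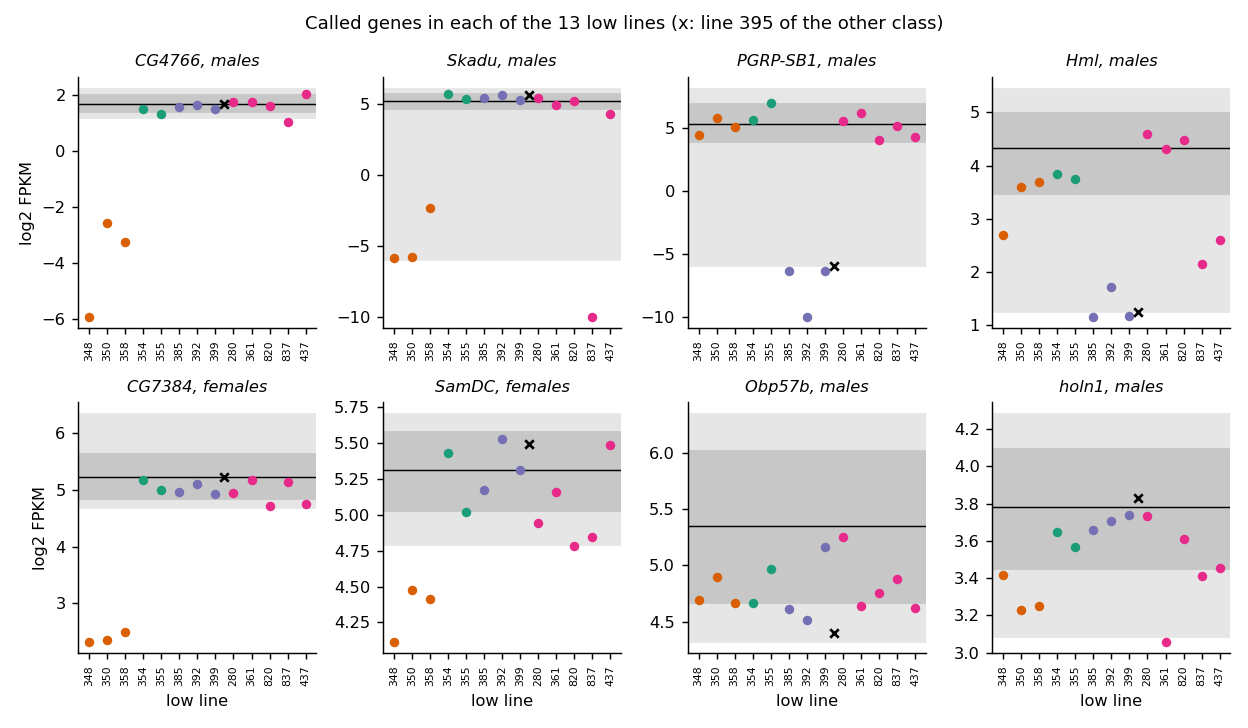
RNA level in log2 FPKM (y axis) of 8 called genes in each of the 13 low lines (x axis, coloured by family), with the median (line), the 5th to 95th percentile (dark band) and the full range (light band) of the 187 other lines. CG4766 and CG7384 are low in lines 348, 350 and 358, PGRP-SB1 is low in 385, 392, 399 and 395 (x), and Obp57b is below the median in all 13.

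The genes most like Lst across the 200 male line means were CG4766 (r = 0.42), Hml (0.41), Skadu (0.39), the P450 gene Cyp4c3 (-0.38) and the serpin gene Spn42Dc (0.35). Within the 187 other lines their r with Lst was between -0.06 and 0.12. Within the 13 low lines it was between -0.64 and 0.54. Their order over 200 lines thus follows the difference between the classes more than the variation within the larger one. Cyp4c3 was at 6.12 and 6.62 in males of the relatives 354 and 355, and at -0.70 to 1.76 in the other class.

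Whether the difference between the classes depended on sex was tested directly, and 4 of 10500 genes (0.0381%) were called. CG11825, with low lines lower in both sexes, had the larger difference in females, by -1.11 ± 0.24 (SE; adjusted p = 0.026). Spn42Dc had a difference of -0.32 in males and 0.16 in females, CG11123 of 0.17 and -0.18, and XLOC_011971 of -2.77 and -2.06. With relatives averaged 0 of 10500 were called by limma, while 605 genes (5.76%) had an unadjusted p below 0.05 before averaging.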

How the data were processed

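Strand-specific libraries of ribosome-depleted total RNA from whole flies were sequenced with single reads, per the labels' protocols. What the authors deposited is on a log2 scale: FPKM of every gene in every library, its line means, and the variant density of every gene in every line, whose length unit is not stated. The lowest value, -9.97, is the log2 of 0.001. BWA 0.7.10, STAR 2.4.0e, Cufflinks 2.2.1, HTSeq and the builds BDGP5 and dm3 are named in the submitters' processing notes, with no role given. Identifiers were matched to Ensembl genes (BDGP6.54) for symbols, arms and gene order, 16733 of 17097 FBgn features having a symbol, and no coordinates are printed because the builds differ.

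Line means were averages of 2 replicates. Genes with a mean of at least 0 log2 FPKM in the sex concerned were compared between classes with limma 3.58.1 (lmFit, eBayes with trend) in R 4.3.3. P-values were adjusted by Benjamini-Hochberg over all tested genes, and genes were called below 0.05. Variant density was fitted likewise, without trend, where it varied in at least 10 lines. Lst in females was tested by permutation in Python 3.11.15 with scipy 1.17.1. Nothing in the labels says that the 2 pools of a line were separate cultures. The lines were treated as independent units, and alternatives that average relatives or leave them out were added after seeing the data. The scripts were tested on simulated data in which lines were drawn independently from a normal distribution for each gene. The simulation held no relatives and no floor values, so it does not show how these affect the calls.

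Depth was the denominator of FPKM inferred from whole-read steps, and 92.3% to 99.5% of low values per library were whole reads within 0.05. Values midway between whole reads, which a doubled depth would give, made up 0% to 1.02%. Read numbers cover counting error only.

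Named genes were Lst and genes of its pathway, called list genes, the 6 called genes of largest difference per sex and direction with a mean of at least 2, the 5 neighbours on each side of Lst and the 5 genes most correlated with it. Genes called with relatives averaged or on ranks were named after their values were seen. The members and gene lists were chosen with earlier results of these data known.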

Additional observations from a re-analysis of the deposited data

Results flagged for a closer look

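Genes were selected here because the class difference itself differed between females and males in the test of that difference (limma, adjusted p below 0.05). The female-minus-male change in the class difference was -1.11 log2 units for CG11825, 0.47 for Spn42Dc, -0.34 for CG11123 and 0.72 for XLOC_011971. In Spn42Dc the male difference rested on the relatives 354 and 355, at 2.58 and 2.4, where the other class began at 3.56. XLOC_011971 was at the floor in males of 348, 350 and 358 and at or near it in their females.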

How the results depend on the processing

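Lst in females kept its direction and its call in all alternatives, with values from -5.32 to -4.18, the latter with a pseudocount of 1 FPKM. Thresholds of 2 and 4 gave the same classes. Counts of called genes moved more, and the cause was not tested. From 87 in males, 56 in females, 4 for the sex difference and 216 for variant density, counts with relatives averaged were 13, 10, 0 and 12. Normal scores of ranks gave 5, 5, 0 and 105, and shared 4 of 87 and 4 of 56 calls. With 5 principal components of variant density the counts were 14, 19 and 1, and with 5 of expression 42, 96 and 14. A pseudocount of 1 FPKM gave 56 in males and 11 for the sex difference. Without a filter the sex difference had 2 calls, with median-centred libraries 7, and with the authors' deposited line means 12. Presence of any variant in place of density gave 104. Leaving out low lines, families or replicates gave 46 to 112 in males, 28 to 67 in females, 1 to 10 for the sex difference and 133 to 269 for variant density. The male count moved by over 1.5 times without line 348, 350, 358 or 385 or the family of 348, the female count without line 348, 350 or 358 or replicate 2, and the density count without line 350. The sex difference, with 4 calls, moved by as much without 11 of the 13 lines.

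Single replicates were also fitted in place of line means, with the line as a block and the replicate number as a covariate. The counts were then 160 in males, 96 in females and 18 for the sex difference, and the Lst difference in females was -5.11. In the main test the replicate numbers were not used, because each line mean holds both. Between lines, the deviations of same-numbered libraries had a median r of 0.04 in each sex. The range was -0.30 to 0.51 in females and -0.28 to 0.41 in males. The mean r of a line was above 0 in 194 of 200 lines in females and 192 in males, so same-numbered libraries of most lines deviated slightly together.

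Sign changes were found for 4 results, each without a family. In females, without 348, 350 and 358, CG3792 was at -0.045, CG4766 at 0.061 and XLOC_011971 at 0.10, and without 385, 392 and 399, PGRP-SB1 was at 0.28. Over all lines, families or replicates left out, the range was -0.045 to 0.29 for CG3792, -1.64 to 0.061 for CG4766, -2.68 to 0.10 for XLOC_011971 and -3.72 to 0.28 for PGRP-SB1. Of 51 calls of named genes by sex, 44 were lost on ranks, 35 with relatives averaged, and 1 (CG11825 in females) was kept in all 31 alternatives. Low Lst values rest on a median of 21.0 reads in males and 24.5 in females, and 13 lines from 8 families limit every comparison.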

Other observations

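In the panel's numbering, lines 348 to 399 held 9 of the 13 low lines among 33 lines in all. The 3 families of relatives accounted for 8 of these 9, line 361 being the remaining one. The range was drawn after the classes were known and begins and ends with a low line, so it is a description without a test.

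Among single low lines, some genes called with relatives averaged were absent or nearly so in 1 line. The metabotropic glutamate receptor gene mGluR was at the floor in males of line 354 and at 1.85 to 2.61 in the other low lines. CR18166 was at the floor in males of line 280 and at 0.17 to 1.69 elsewhere in the class. CG12158 was at -5.69 in males of line 820 and at 6.78 or more in the other low lines. In the main test CG12158 was not called in either sex (limma, adjusted p = 0.15 in males and 0.065 in females). MME1, a mitochondrial magnesium exporter gene, was at -1.74 in females of line 280 and at 3.26 to 3.93 in the others. The class difference of each of these genes thus holds 1 line far from the rest, and the male call of CR18166 was also lost without line 837. The Hippo pathway gene kibra was high in males of 354 and 355, at 3.12 and 3.21, and of 437, at 3.10, while the other low lines lay between 1.20 and 1.97.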
